A study of Homo sapiens with 4 samples.

Results

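The members described here are the 84 single guide RNAs (sgRNAs) that target 21 genes of the cleavage and polyadenylation machinery, among 77441 sgRNAs of a genome-wide CRISPR-Cas9 knockout screen. They were taken by the gene named in the count table: subunits of CPSF, CstF, CFIm and CFIIm and linked factors, with 4 sgRNAs per gene, and the rule uses no count. The 2 conditions were A549, a human lung adenocarcinoma line, carrying the Brunello lentiviral knockout library and kept in 4 µM HQ461, and the same library-bearing cells kept in 0.1% DMSO, the vehicle. Both were selected with puromycin for 1 week and then treated for 3 weeks. The labels give 2 biological replicates per condition, but the table has 1 column per condition, so no value below has a replicate check and no test between the conditions was possible. An sgRNA count is a relative measure of how many cells with that guide were left at the end. The 4 sgRNAs of a gene share their target and are not replicates.

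Almost every human mRNA ends where its precursor is cut and given a poly(A) tail. CPSF reads the AAUAAA signal through WDR33 and CPSF4 and cuts through CPSF3, CstF binds the GU-rich element downstream, and CFIm binds UGUA elements upstream. CFIIm links the reaction to the C-terminal domain of RNA polymerase II. CDK12 with cyclin K phosphorylates that domain, and loss of CDK12 raises the use of polyadenylation sites inside introns of long genes, which is why these factors were looked at here. HQ461 is a molecular glue that joins CDK12 to DDB1 and so leads to loss of cyclin K, as the title of the series has it. The sgRNA sequences are not part of the count table, so the sites that the guides cut, and any match of 1 guide to a related gene such as CSTF2 and CSTF2T, were not analysed here.

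The HQ461 column held 16127620 counts and the DMSO column 14428845. Counts were divided by size factors of 0.833 for HQ461 and 1.20 for DMSO, set so that the median sgRNA did not change, and log2 fold changes are HQ461 over DMSO with 1 added to each normalized count. A gene's value is the median over its sgRNAs. An sgRNA or gene is called 2-fold higher or lower where its log2 fold change is at least 1 or at most -1. The 997 non-targeting control sgRNAs with counts, which cut no gene, show how far sgRNAs drift without a knockout: their log2 fold changes had an SD of 0.87 across sgRNAs, a 1st percentile of -1.67 and a 99th percentile of 2.92. Intervals are exact 95% intervals of counting error only, and PCR reads are not independent molecules. Where a column holds 0, the fold is given as "at least", against 3 counts in that column and with the other column at its measured count, so counting error in the other column is not in it.

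The cleavage and polyadenylation guides did not shift together, and they spread wider than all targeting sgRNAs. The median log2 fold change of the 84 sgRNAs was -0.02, against -0.01 for all 76171 targeting sgRNAs with counts. The SD was 2.09 for the members and 1.33 for all targeting sgRNAs. With sgRNAs at 0 placed at their bound, the SD of the members was 1.84 over 82 sgRNAs. Over all targeting sgRNAs under 30 normalized counts with DMSO the SD was 2.02, and 40 of the 84 members were that rare. Of the 84, 24 (28.6%) were 2-fold higher and 25 (29.8%) 2-fold lower with HQ461. The background over all targeting sgRNAs was 19.5% higher and 17.9% lower. Over those under 30 normalized counts with DMSO it was 32.7% and 29.8%. Genes were found on both sides. CPSF2, CPSF3 and SYMPK, which form the cutting module, together with SSU72 and CSTF2 had gene medians 2-fold higher, whereas CSTF3, NUDT21, PAPOLA and RBBP6 had medians 2-fold lower. That is 5 and 4 of 21 genes, where 9.01% of all 19111 genes were 2-fold higher and 7.69% lower by the same rule. The other 12 genes had medians within 2-fold. Among all genes with a median under 30 normalized counts with DMSO, 16.9% were 2-fold higher and 21.8% lower. The part that low counts have in the spread of the members was not tested. Of the 84 sgRNAs, 6 were at 0 with HQ461 and 5 at 0 with DMSO, and 4 had at most 3 counts in both columns, where no fold can be given although the added count of 1 still gives a value.

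The members were rare with the vehicle alone. With DMSO the median member sgRNA had 34.6 normalized counts, against 127 for all targeting sgRNAs, and 40 of 84 (47.6%) had under 30 normalized counts, against a background of 8.11%. Under 10 normalized counts with DMSO were 22 members (background 3.09%) and under 100 were 69 (background 38.1%), and with HQ461 42 members were under 30 (background 13.0%). Of the 21 genes, 20 lay below the median of all genes by their normalized count with DMSO, and 14 lay in the lowest 10%. The exception was CSTF2T, a paralog of CSTF2, at 309 normalized counts with DMSO and the 95.7 percentile of genes. Abundance before the treatment was not analysed here, so loss of the knockout cells during growth and a small share in the starting pool cannot be told apart.

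In rising order of the median normalized count with DMSO, CPSF2 had 3.33, CPSF3 and CLP1 had 7.91, SSU72 had 9.58, XRN2 had 12.9, NUDT21 had 13.3, FIP1L1 had 15.8 and SYMPK had 17.9. CSTF3 followed at 27.1, then CPSF4 at 30.8, RBBP6 at 34.2, PAPOLA at 37.1, PCF11 at 37.5 and PABPN1 at 52.9. The most abundant were CPSF7 at 67.1, WDR33 at 70.0, CPSF1 at 70.4, CSTF2 at 71.2, CSTF1 at 90.4, CPSF6 at 97.5 and CSTF2T at 309. Neighbours in this order overlapped in the ranges of their sgRNAs, except that the 4 CSTF2T sgRNAs, at 257 to 368, lay above all 4 sgRNAs of CPSF6, at 10.0 to 221. Fold changes were wider among rare sgRNAs in the whole library, with an SD of 2.02 under 30 normalized counts with DMSO and 0.92 at 300 or more. For the members the SD was 2.54 over the 40 sgRNAs under 30 and 0.31 over the 3 at 300 or more. From 30 to 100 it was 1.75 over 29 members and 1.49 over all targeting sgRNAs. From 100 to 300 it was 1.00 over 12 members and 1.15 over all targeting sgRNAs. Of all targeting sgRNAs under 30 normalized counts with DMSO, 32.7% were 2-fold higher and 29.8% 2-fold lower, and of those with at least 30, 18.3% and 16.9% were. Among the members, 16 of the 40 rare sgRNAs were 2-fold higher and 15 (37.5%) lower, and 8 of the other 44 (18.2%) were higher and 10 (22.7%) lower.

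The cutting module stood highest. Its 12 sgRNAs held 1131 counts with HQ461 and 190 with DMSO, a log2 ratio of the normalized sums of 3.10 (2.88 to 3.33), and 7 of the 12 were 2-fold higher and 2 lower. Of all targeting sgRNAs 19.5% were higher and 17.9% lower, and of those under 30 normalized counts with DMSO 32.7% and 29.8%. Without the sgRNA that had most counts with HQ461, the sums were 555 counts with HQ461 and 160 with DMSO, a log2 ratio of 2.32. Of the 12, 11 had under 30 normalized counts with DMSO. CPSF2 is the inactive partner of the endonuclease, CPSF3 is the endonuclease that makes the cut, and SYMPK (symplekin) is the scaffold that holds both and also joins CstF.

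CPSF2 (chromosome 14, 92121969 to 92172145 on GRCh38) had 39, 21, 69 and 13 counts with HQ461, against 0, 29, 3 and 5 counts with DMSO, in the order of the library's numbering. The first of these was at least 18.7-fold higher, taking 3 counts as the limit that a count of 0 allows (counting interval from 14.5 up), and the third was 33.1-fold higher (10.9 to 165). The gene median was 3.13, the 99.8 percentile of all genes, and 3 of the 4 sgRNAs were 2-fold higher. The second sgRNA, the 1 with most counts with DMSO, had a ratio of 1.04 (0.566 to 1.89), and the fourth was 3.75-fold higher (1.25 to 13.4).

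CPSF3 (chromosome 2, 9423651 to 9473101) had 9, 10, 284 and 1 counts with HQ461, against 7, 1, 21 and 12 counts with DMSO. Its sgRNAs disagreed. The third carried 93.4% of the gene's counts with HQ461 and was 19.5-fold higher (12.5 to 32.0), the second was 14.4-fold higher (2.05 to 625), and the fourth was 8.33-fold lower (ratio 0.120, 0.00281 to 0.812). The first had a ratio of 1.85 (0.614 to 5.85). The gene median was 1.81, and 0.79 without the most extreme sgRNA.

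SYMPK (chromosome 19, 45815410 to 45863194) had 70, 576, 22 and 17 counts with HQ461, against 4, 30, 65 and 13 counts with DMSO. The first sgRNA was 25.2-fold higher (9.42 to 95.1) and the second 27.7-fold higher (19.2 to 41.4), the third was 2.05-fold lower, and the fourth had a ratio of 1.88 (0.862 to 4.22). The gene median of 2.58 thus lay between sgRNAs that went opposite ways. The third sgRNA is the 1 that keeps at least 30 normalized counts with DMSO. Under that minimum the value of SYMPK turned to -1.01. The minimum is set on DMSO alone, the denominator of the fold change. It dropped the second sgRNA, with 576 counts with HQ461, and kept the third, with 22. The change of sign is therefore partly built in and cannot decide the direction of SYMPK. Without the most extreme sgRNA the value of SYMPK was 0.86. No sgRNA of CPSF2 or CPSF3 reached that minimum.

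SSU72 was the 1 member with all 4 sgRNAs 2-fold higher. The share of all genes with 4 such sgRNAs was not analysed here. At least 3 of 4 were 2-fold higher in 5.24% of all genes. Among genes with a median under 30 normalized counts with DMSO, 10.8% had this. SSU72 is a phosphatase of the RNA polymerase II C-terminal domain that removes phosphate from serine 5 and binds symplekin. The gene lies on chromosome 1 from 1541673 to 1574863. Its sgRNAs had 65, 11, 280 and 4 counts with HQ461, against 23, 0, 55 and 0 counts with DMSO. With 1 added to the counts their log2 fold changes lay between 1.97 and 3.83. The first was 4.07-fold higher (2.50 to 6.87) and the third 7.34-fold higher (5.48 to 9.98). Against 3 counts, the second was at least 5.28-fold higher (counting interval from 3.62 up) and the fourth at least 1.92-fold. The counting interval of the fourth, which rests on 4 counts, starts at 0.951 and so includes no change. The gene median of 2.69 was the 99.6 percentile, and SSU72 stayed between 1.82 and 2.91 under all 10 alternatives tried. Among these, the minimum of 30 normalized counts with DMSO left only the third sgRNA. The 20 library genes nearest to SSU72 had a median of -0.21.

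mPSF is the part of CPSF that reads the poly(A) signal. Its 16 sgRNAs against CPSF1, CPSF4, WDR33 and FIP1L1 held 1525 counts with HQ461 and 1318 with DMSO, a log2 ratio of the normalized sums of 0.74 (0.63 to 0.84), and 0.12 without the sgRNA that had most counts with HQ461. The median log2 fold change was 0.086, against 2.26 for the cutting module, a difference that was not tested. Of the 16 sgRNAs 3 were 2-fold higher and 4 lower, with the background of 19.5% and 17.9% over all targeting sgRNAs. CPSF1, the large scaffold subunit, had 715, 11, 5 and 85 counts with HQ461, against 247, 60, 23 and 109 counts with DMSO. The first sgRNA was 4.17-fold higher (3.60 to 4.84) and held 87.6% of the gene's counts with HQ461, while the second was 3.79-fold and the third 3.19-fold lower, so that the gene median was -0.68 and the ratio of summed counts 1.42 on the log2 scale. WDR33, which contacts AAUAAA, had 136, 2, 140 and 69 counts with HQ461, against 69, 1, 111 and 99 counts with DMSO, and a median of 0.87 with all 4 sgRNAs above 0, the 1 with 2 and 1 counts included. Such a set of 4 above 0 was found in 10.3% of all genes, and in 4 member genes: WDR33, CPSF2, CSTF2 and SSU72.

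CPSF4, a zinc-finger subunit that also contacts the signal, had a median of 0.41, with 11, 26, 288 and 2 counts with HQ461, against 8, 66, 434 and 1 counts with DMSO. Its log2 fold changes lay between -0.80 and 0.89, and the third, its 1 abundant sgRNA, had a ratio of 0.956 (0.821 to 1.11). FIP1L1, which binds U-rich RNA and poly(A) polymerase, was scarce in both columns, with 21, 6, 7 and 1 counts with HQ461, against 48, 19, 4 and 19 counts with DMSO. The fourth sgRNA was 13.2-fold lower (ratio 0.0758, 0.00183 to 0.477), the third had a ratio of 2.52 (0.641 to 11.7), and the gene median was -0.84.

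The 4 CstF genes went different ways. CSTF2, the RNA-binding subunit (chromosome X, 100820391 to 100841520), had 170, 59, 250 and 253 counts with HQ461, against 81, 59, 175 and 90 counts with DMSO. It is the 1 higher gene whose 4 sgRNAs all exceeded 30 normalized counts with DMSO, at 49.1 to 146. The ratios were 3.02 (2.31 to 3.99), 1.44 (0.987 to 2.10), 2.06 (1.69 to 2.51) and 4.05 (3.17 to 5.21), and the median was 1.31, the 94.8 percentile of all genes. These sgRNAs spanned 1.49 log2 units, and none passed the 99th percentile of the controls. Scaled by total counts, which lowers all values, CSTF2 had 0.63.

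CSTF2T, its intronless paralog (chromosome 10, 51695486 to 51699595), had 175, 491, 192 and 235 counts with HQ461, against 318, 309, 442 and 424 counts with DMSO. The second sgRNA was 2.29-fold higher (1.98 to 2.65), the other 3 had ratios between 0.626 and 0.799, and the median was -0.33. The sgRNA ranges of CSTF2 and CSTF2T overlapped, at 0.52 to 2.00 for CSTF2 and -0.67 to 1.19 for CSTF2T on the log2 scale.

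CSTF3, the scaffold of CstF (chromosome 11, 33077188 to 33162371), was the 1 member with all 4 sgRNAs 2-fold lower. The share of all genes with 4 such sgRNAs was not analysed here. At least 3 of 4 were 2-fold lower in 3.74% of all genes. Among genes with a median under 30 normalized counts with DMSO, 14.1% had this. CSTF3 had 5, 13, 0 and 37 counts with HQ461, against 21, 44, 19 and 133 counts with DMSO. The first, second and the fourth sgRNA were 2.91-fold, 2.35-fold and 2.49-fold lower, with ratios of 0.343 (0.101 to 0.935), 0.426 (0.210 to 0.805) and 0.401 (0.271 to 0.581), and the third was at least 4.40-fold lower. The gene median was -1.35, the 3.47 percentile of all genes, and it was past 2-fold under all 10 alternatives. The first, second and the fourth sgRNA lay within the 1st to 99th percentile of the controls, and the third below it.

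CSTF1, the remaining CstF subunit, had 4, 83, 4 and 159 counts with HQ461, against 0, 175, 45 and 172 counts with DMSO. The first sgRNA, at 4 counts with HQ461 and 0 with DMSO, had a counting interval that includes no change (from 0.951 up), and the third was 7.81-fold lower (ratio 0.128, 0.0335 to 0.351). The abundant second and the fourth had ratios of 0.683 (0.520 to 0.892) and 1.33 (1.07 to 1.66), and the gene median was -0.07.

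CFIm, the complex that steers the choice among poly(A) sites, was lower in its summed counts. Its 12 sgRNAs held 495 counts with HQ461 and 949 with DMSO, a log2 ratio of -0.41 (-0.57 to -0.25). Without the sgRNA that had most counts with HQ461 it was -0.36. The interval is of counting error only, and single control sgRNAs had an SD of 0.87. Of the 12 sgRNAs 1 was 2-fold higher and 5 lower, with the background of 19.5% and 17.9% over all targeting sgRNAs. NUDT21, the subunit that binds UGUA (chromosome 16, 56429133 to 56452199), had 0, 8, 1 and 0 counts with HQ461, against 48, 25, 0 and 7 counts with DMSO. Over the gene this was 9 counts with HQ461 and 80 with DMSO, a log2 ratio of -2.62 (-3.81 to -1.63). The first sgRNA was at least 11.1-fold lower, the second 2.17-fold lower (ratio 0.461, 0.180 to 1.05) and the fourth at least 1.62-fold lower (0 counts with HQ461 and 7 with DMSO, counting interval up to a ratio of 1.00), and the third was too rare in both columns for a fold. The median was -1.91, the 1.05 percentile of all genes, and -0.97 with a pseudocount of 5.

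CPSF6 and CPSF7 are the alternative large partners of NUDT21. CPSF6 had 0, 46, 124 and 59 counts with HQ461, against 12, 126, 265 and 108 counts with DMSO. All 4 sgRNAs were below 0, as in 9.00% of all genes and in 3 members (CSTF3, CPSF6 and PCF11), and the median was -0.74. The first was at least 2.78-fold lower and the others had ratios of 0.526 (0.367 to 0.743), 0.674 (0.540 to 0.838) and 0.787 (0.563 to 1.09). CPSF7 had 85, 111, 53 and 8 counts with HQ461, against 86, 143, 54 and 75 counts with DMSO. Its first 3 sgRNAs had log2 fold changes between 0.16 and 0.50 and the fourth was 6.51-fold lower (ratio 0.154, 0.0640 to 0.319), for a median of 0.33.

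CPSF7 and CLP1 lie in a part of 11q where most genes were higher. CPSF7 (chromosome 11, 61402641 to 61430031) starts 60045 bases beyond the end of DDB1, and CLP1 (57648188 to 57661865) lies between the centromere and DDB1. The 136 genes of that interval had a median log2 fold change of 1.81, and 88.2% were 2-fold higher. Against this, CLP1 had -0.38, and 3 of the 136 had a lower value. That value turned to 1.20 without the most extreme sgRNA of CLP1. It was also 1.20 with the minimum of 30 normalized counts with DMSO, which left 1 sgRNA of CLP1. The ratio of summed counts was 0.89 (0.44 to 1.33) on the log2 scale. Of the 20 nearest library genes of CLP1, 19 were above it, at a median of 1.62, and of the 20 around CPSF7, which include DDB1, 19 were above it, at a median of 1.74. Less the median of their neighbours, CLP1 came to -1.99 and CPSF7 to -1.42. The part that position has in these values was not tested. The other 19 members had neighbour medians between -0.44 and 0.46.

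CLP1, an RNA kinase of CFIIm, had 1, 87, 1 and 11 counts with HQ461, against 9, 54, 10 and 5 counts with DMSO. Its sgRNAs were split: the second was 2.32-fold higher (1.63 to 3.32) and the fourth 3.17-fold higher (1.02 to 11.6), while the first was 6.25-fold lower (ratio 0.160, 0.00365 to 1.16) and the third 6.94-fold lower (ratio 0.144, 0.00332 to 1.01). PCF11, the CFIIm subunit that binds the polymerase C-terminal domain, had 34, 26, 12 and 9 counts with HQ461, against 51, 39, 84 and 34 counts with DMSO. Its first 2 sgRNAs both had a ratio of 0.961, the third was 4.86-fold lower (ratio 0.206, 0.102 to 0.379) and the fourth 2.62-fold lower (ratio 0.381, 0.161 to 0.812), for a median of -0.68.

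Of the factors that act on the cut end, PAPOLA, the poly(A) polymerase (chromosome 14, 96501433 to 96567116), had 5, 13, 0 and 97 counts with HQ461, against 54, 35, 6 and 73 counts with DMSO. The first sgRNA was 7.49-fold lower (ratio 0.133, 0.0416 to 0.331), the second had a ratio of 0.535 (0.260 to 1.04), the third had 0 counts with HQ461 and 6 with DMSO, with a counting interval that includes no change (ratio up to 1.22), and the fourth was 1.91-fold higher (1.40 to 2.63). The median was -1.72, and -0.86 both with a pseudocount of 5 and without the most extreme sgRNA. The ratio of summed counts was -0.02 (-0.37 to 0.33) on the log2 scale. PABPN1, the nuclear poly(A)-binding protein, had the narrowest range of all members, with 4 log2 fold changes between -0.83 and 0.49 and a median of -0.22. Its sgRNAs held 322 counts with HQ461 and 406 with DMSO.

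RBBP6, a RING-finger activator of the endonuclease (chromosome 16, 24537693 to 24572863), had 42, 4, 4 and 49 counts with HQ461, against 57, 36, 46 and 29 counts with DMSO. The second sgRNA was 6.25-fold lower (ratio 0.160, 0.0414 to 0.447) and the third 7.98-fold lower (ratio 0.125, 0.0328 to 0.343), the first had a ratio of 1.06 (0.695 to 1.61), and the fourth was 2.43-fold higher (1.51 to 4.00). The median of -1.17 lay between these pairs and turned to 0.085 without the most extreme sgRNA, and it was -0.88 with a pseudocount of 5. XRN2, the exonuclease that degrades the RNA left on the polymerase after the cut, had 220, 65, 11 and 0 counts with HQ461, against 18, 165, 13 and 2 counts with DMSO. Its first sgRNA was 17.6-fold higher (10.9 to 30.3), the second was 1.76-fold lower, the third had a ratio of 1.22 (0.495 to 2.95), the fourth was too rare in both columns for a fold, and the median was -0.27. The ratio of summed counts, 1.11 (0.84 to 1.37) on the log2 scale, went the other way.

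Disagreement between sgRNAs of 1 gene was found in part of the group. With the added count of 1, 9 of 21 member genes (42.9%) had at least 1 sgRNA 2-fold higher and another 2-fold lower. Of all genes with 4 sgRNAs 21.7% showed this, and the share among rare genes was not analysed here. In NUDT21 the higher sgRNA, and in XRN2 the lower one, had at most 3 counts in both columns, where no fold can be given. The median range within a gene was 3.54 log2 units for the members and 2.14 for all genes, and it was 3.45 for the 901 genes with a median under 30 normalized counts with DMSO. The sgRNA with most counts held a median of 67.3% of a member gene's counts with HQ461, against 47.4% for all genes and 63.6% for those 901. At least 3 of 4 sgRNAs were 2-fold higher in 3 members (CPSF2, CSTF2 and SSU72), with a background of 5.24% over all genes and 10.8% over the 901, and 2-fold lower in 2 members (CSTF3 and NUDT21), with a background of 3.74% and 14.1%. Of the 9 members that are among the 901, 2 were higher by that rule and 2 lower. By their medians 4 of these 9 were 2-fold higher and 2 lower, with a background of 16.9% and 21.8% over the 901.

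Measured against the controls, 7 member sgRNAs (8.33%) passed the 99th percentile, where the background was 2.44% of targeting sgRNAs. These were 2 each of CPSF2 and SYMPK and 1 each of CPSF3, SSU72 and XRN2, and all 7 had under 30 normalized counts with DMSO. Below the 1st percentile lay 16 (19.0%), against a background of 7.53%, and 7 of them had at least 30 normalized counts with DMSO. These 7 belonged to NUDT21, CPSF1, CPSF7, CSTF1, PAPOLA, PCF11 and RBBP6, 1 sgRNA each. The shares of all targeting sgRNAs past these percentiles, split at 30 normalized counts with DMSO, were not analysed here. The split of the members therefore has no background beside it. Of the members 47.6% were under 30, against 8.11% of all targeting sgRNAs. Controls were far more abundant than the members, at a median of 437 normalized counts with DMSO, and how rare sgRNAs that cut no gene would spread was not tested.

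Beyond the 21 genes, 18 further genes of 3′ end formation and termination gave 2 genes 2-fold higher, 3 lower and 13 within 2-fold, where 9.01% of all genes were higher and 7.69% lower. These counts are close to that background, and the median was -0.18 against -0.02 for all genes. The higher ones were PPP1CA, a catalytic subunit of protein phosphatase 1, at 1.32, and PPP1R10 (PNUTS), which brings that phosphatase to chromatin, at 1.09. PPP1CA lies on 11q, and its 20 neighbours had a median of 0.61. PPP1R10 had 589, 45, 133 and 53 counts with HQ461, against 242, 29, 92 and 44 counts with DMSO. The lower ones were RPAP2, RPRD1B and ZC3H14. RPAP2, a serine 5 phosphatase, had -3.84, with 1, 13, 0 and 0 counts with HQ461, against 40, 3, 16 and 16 counts with DMSO. RPRD1B, which binds the phosphorylated domain, had -2.89, with 13, 6, 4 and 37 counts with HQ461, against 67, 112, 100 and 261 counts with DMSO. ZC3H14, a poly(A)-binding protein, had -1.49, with 168 counts with HQ461 and 589 with DMSO.

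SSU72 and RPAP2 are both described as serine 5 phosphatases. With the added count of 1, 3 of the 4 RPAP2 sgRNAs were 2-fold lower and 1 higher, where all 4 of SSU72 were 2-fold higher. The fourth of SSU72 had 4 counts with HQ461 and 0 with DMSO, and its counting interval includes no change. The higher RPAP2 sgRNA had 13 counts with HQ461 and 3 with DMSO. The genes of the kinase itself gave 1.87 for CDK12, -1.83 for CDK13 and -2.66 for CCNK. CDK12 lies on chromosome 17, where its 20 neighbours had a median of 1.64.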

How the data were processed

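The authors deposited raw counts of amplicon reads per sgRNA (the submitters' processing notes name MAGeCK 0.5.9.2) in 1 column for HQ461 and 1 for DMSO. The sources used here do not say how 2 replicates became 1 column. No fit with replicates was therefore possible, and no count model was run. Size factors were median ratios over sgRNAs above 0 in both columns. The 273 sgRNAs at 0 in both columns were left out. Log2 fold changes used a pseudocount of 1, and intervals are exact conditional binomial (Clopper-Pearson) intervals of the ratio of 2 counts. A count of 0 was bounded at 3 counts per column. Genes were placed on GRCh38 with GENCODE 44 (17761 by symbol, 952 through an older symbol, 398 not placed). Neighbours are the 10 nearest library genes on each side. Calculations used Python 3.11.15, numpy 2.4.6, scipy 1.17.1 and pandas 2.3.3, with TMM factors from edgeR 4.0.16, and were tested on simulated data. All 21 genes are named and every sgRNA is accounted for: counts are printed where the gene is past 2-fold or an sgRNA is outside the control percentiles, and otherwise mostly ranges. Genes of the further lists are named where past 2-fold. Members, lists and alternatives were chosen with earlier results of these data known.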

Additional observations from a re-analysis of the deposited data

How the results depend on the processing

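No paired analysis was possible because replicates have no columns of their own, and for the same reason leaving out a replicate was not run. Of the 5 member genes 2-fold higher, all 5 remained with TMM factors, scaling by controls, a pseudocount of 5, the neighbours' median subtracted, sgRNAs at 0 at their bound, the mean over sgRNAs and the ratio of summed counts. Of them 4 remained with scaling by total counts, 3 without the most extreme sgRNA and 2 with the minimum of 30. At that minimum CPSF2 and CPSF3 had no sgRNA left, so they could not be judged. Of the 4 lower genes, 4 remained under each scaling, 3 with the mean, the bound, the minimum of 30 and the neighbours' median, 2 with summed counts and without the most extreme sgRNA, and 1 (CSTF3) with a pseudocount of 5. Scaling by total counts moved the median of all targeting sgRNAs to -0.69 and that of the members to -0.70. It gave 15 member sgRNAs 2-fold higher and 37 lower, 9 genes lower, and 6 genes with at least 3 sgRNAs lower. A pseudocount of 5 gave 1 gene 2-fold lower by its median and 1 by 3 sgRNAs. The ratio of summed counts gave 2 lower genes, and sgRNAs at 0 placed at their bound (added after seeing the data, as was the count of genes by 3 sgRNAs) gave 1 gene lower by 3 sgRNAs. The minimum of 30 normalized counts was set on DMSO alone, the denominator of the fold change. It drops sgRNAs that were rare with DMSO and high with HQ461, but keeps those lost with HQ461. Its split by direction is therefore partly built in. This minimum left 44 sgRNAs of 19 genes, with a median of -0.088. Of these, 8 were higher and 10 lower, and 0 lay above and 7 below the control percentiles. By medians the minimum gave 3 genes higher (CSTF2, CLP1 and SSU72), by 3 sgRNAs 1 higher and 0 lower, and it turned SYMPK to -1.01. CLP1, SSU72, SYMPK and NUDT21 each had 1 sgRNA left at that minimum. Removal of the most extreme sgRNA turned RBBP6 to 0.085. Less the neighbours' median, the members' median was -0.17. Under 10 normalized counts with DMSO were 22 members, and under 100 were 69. Scaling by total counts lowers all values, and a larger pseudocount draws the values of rare sgRNAs towards no change. Other causes of these shifts were not tested.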

Other observations

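Integrator cuts the nascent RNA of snRNA and other short genes with CPSF3L (INTS11) and INTS9, which are paralogs of CPSF3 and CPSF2. Its 56 sgRNAs over 14 genes had a median of 23.7 normalized counts with DMSO, against 34.6 for the cleavage and polyadenylation guides, with 58.9% under 30 normalized counts with DMSO, against 47.6% of the members. Of these sgRNAs 12 (21.4%) were 2-fold higher and 14 lower, against 24 (28.6%) higher and 25 (29.8%) lower of the 84 members. Over all targeting sgRNAs 19.5% were higher and 17.9% lower, and over those under 30 normalized counts with DMSO 32.7% and 29.8%. CPSF3L had a gene median of 1.42, with 6, 3, 34 and 47 counts with HQ461, against 19, 1, 8 and 23 counts with DMSO, and INTS9 had 0.14. INTS8 at 1.70 and INTS3 at 1.40 were the other genes 2-fold higher, and INTS1 at -2.01 was the 1 gene lower. Of 4 genes that act at the 3′ end of histone mRNAs, which CPSF3 also cuts, 0 were 2-fold higher by their median and SLBP, the stem-loop binding protein, was lower at -1.02, with 8, 19, 2 and 73 counts with HQ461, against 20, 69, 47 and 165 counts with DMSO. By their medians 9.01% of all genes were 2-fold higher and 7.69% lower. These differences between lists were not tested.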
